A study of Mus musculus with 8 samples.

Results

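The mitochondrial genome of the mouse encodes 22 transfer RNAs, and all 22 were listed as mitochondrial transfer RNA (type Mt_tRNA) among the 2403 features of a small RNA count table. All of them were taken, with no selection on their values. The libraries came from immortalized skin fibroblasts kept for 24 h in hypoxia (1% O2) or normoxia (21% O2). Cells titled KO carried the genotype C57BL/6 (mir210lox/lox), an allele in which microRNA-210 is flanked by lox sites, and cells titled WT were C57BL/6 (WT); the labels do not name a Cre. The 4 groups were KO hypoxia, KO normoxia, WT hypoxia and WT normoxia, each with 2 libraries numbered 1 and 2, which makes 8 libraries. Whether both libraries of a group stem from different cultures or mice is left unsaid by the labels. A p-value therefore measures only the spread between these libraries, which may be technical. Both genotypes are immortalized lines, and the number of lines or clones behind each was not stated.

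The deposited values are normalized read counts, given as whole numbers, and are called counts below. They summed to between 8618630 (KO normoxia number 1) and 12167438 (WT hypoxia number 2) per library. A count of 0 would thus allow a share of up to 2.47e-05% to 3.48e-05% (3 counts over the library total). That bound takes normalized counts as reads and covers counting error only. Mature miR-210-3p, which the lox allele targets, had 10 to 32 counts in the 4 KO libraries and 4786 to 39011 counts in the 4 WT libraries. Of 7 microRNAs taken as fibroblast or mesenchymal, 6 were listed and together took 37.6% to 46.7% of a library. The sum does not show how much each of them contributed. The microRNAs of haematopoietic, epithelial, endothelial, muscle, neural and liver cells took at most 0.00277% per list. The library of KO hypoxia number 1 stood apart by its ribosomal RNA, which took 5.76% of its counts, the most of any library.

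Mitochondrial transfer RNAs read the codons of the 13 proteins made inside mitochondria, all of them parts of the respiratory chain and ATP synthase. Their genes lie between the genes for ribosomal RNAs and proteins on both strands of the circular genome, and each strand is transcribed as a long precursor from which the transfer RNAs are cut out. Enzymes then add the CCA end and modify many bases. In small RNA libraries the reads assigned to a transfer RNA can come from the whole molecule or from fragments of it, and the table, with 1 value per gene, does not tell these apart. How evenly the libraries captured different transfer RNAs was not tested. Level and abundance below therefore refer to read counts, not to amounts in the cell. Each value is also relative to the rest of its library, so fewer mitochondria per cell and less transfer RNA per mitochondrion cannot be told apart.

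The identity of all 22 members was checked against GENCODE M21 (mouse build GRCm38). All 22 transcript IDs matched, with the same coordinates and the same sequence as in the deposited table. On the reference sequence 14 genes lay on the plus strand and 8 on the minus strand. Lengths ran from 59 bases (mt-Ts2) to 75 bases (mt-Tl1), and GC content ran from 17.1% (mt-Td) to 44.9% (mt-Tm). The 8 sequences below are those on which the results turn: the most abundant pair (mt-Ts2 and mt-Th), the least abundant (mt-Td), and 5 members named for their difference between hypoxia and normoxia. They are gene sequences 5′ to 3′ in the sense of the transfer RNA, as the deposited table has them, with the anticodon in capitals.
mt-Ts2: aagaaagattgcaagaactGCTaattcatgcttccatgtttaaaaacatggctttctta
mt-Th: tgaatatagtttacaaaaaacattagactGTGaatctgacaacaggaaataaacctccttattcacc
mt-Td: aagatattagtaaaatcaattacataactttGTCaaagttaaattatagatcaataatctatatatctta
mt-Te: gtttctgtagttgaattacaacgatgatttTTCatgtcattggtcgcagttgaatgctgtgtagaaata
mt-Tt: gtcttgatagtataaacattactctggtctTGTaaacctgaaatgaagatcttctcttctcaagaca
mt-Tq: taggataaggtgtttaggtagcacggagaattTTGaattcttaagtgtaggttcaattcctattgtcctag
mt-Tg: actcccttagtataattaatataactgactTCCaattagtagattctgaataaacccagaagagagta
mt-Tf: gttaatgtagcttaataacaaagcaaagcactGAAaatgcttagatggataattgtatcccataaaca

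mt-Ts2 (chrM:11613-11671, plus strand) is the serine transfer RNA for AGY codons, which in mammals lacks the D arm, and it is the shortest of these sequences. mt-Th (chrM:11546-11612, plus strand), for histidine, ends on the base before it, and mt-Tl2 (chrM:11671-11741, plus strand), the leucine transfer RNA for CUN codons, shares 1 base with its other end. mt-Td (chrM:6942-7011, plus strand) carries aspartate. mt-Te (chrM:14071-14139, minus strand) carries glutamate and lies between the genes for ND6 and cytochrome b. mt-Tt (chrM:15289-15355, plus strand) carries threonine and is followed by mt-Tp (chrM:15356-15422, minus strand), for proline. mt-Tq (chrM:3772-3842, minus strand) carries glutamine and overlaps the end of mt-Ti, for isoleucine, by 3 bases on the opposite strand. mt-Tg (chrM:9391-9458, plus strand) carries glycine, and mt-Tf (chrM:1-68, plus strand), for phenylalanine, is the first gene of the reference sequence, next to the non-coding region.

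Together the 22 members took about 1% of each library. Their summed share of all counts was 1.12% and 0.986% in KO hypoxia, 1.22% and 1.37% in KO normoxia, 0.988% and 0.946% in WT hypoxia, and 0.992% and 1.26% in WT normoxia (libraries 1 and 2). The exact binomial 95% interval of a share was narrow, for example 1.36% to 1.37% in KO normoxia number 2. It takes the normalized counts as if they were reads, so it only approximates counting error and leaves out the spread between libraries. The group means were 1.05% ± 0.0968 in KO hypoxia and 1.29% ± 0.107 in KO normoxia, and 0.967% ± 0.0294 in WT hypoxia and 1.13% ± 0.189 in WT normoxia (SD, n = 2 each). Both KO hypoxia libraries lay below both KO normoxia libraries, and both WT hypoxia libraries lay below both WT normoxia libraries, in WT narrowly, with 0.988% in hypoxia against 0.992% in normoxia at the nearest. The 423 genomic transfer RNA features, which serve the cytosol, took 6.49% to 11% of a library. The ratio of mitochondrial to genomic transfer RNA counts was 0.121 ± 0.0124 in KO hypoxia and 0.126 ± 0.00151 in KO normoxia, and 0.139 ± 0.00988 in WT hypoxia and 0.151 ± 0.0168 in WT normoxia (SD, n = 2 each), so relative to genomic transfer RNA the oxygen groups of each genotype differed by no more than the spread between libraries.

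The levels of single members, taken as counts per base of gene length and averaged over the 4 groups, spanned a 1495-fold range. mt-Ts2 stood at 606 counts per base (439 to 802 over the 8 libraries), 3.04 times the next member, and alone made up 31.1% of the mitochondrial transfer RNA counts. mt-Th followed with 199 counts per base, mt-Tf with 137 and mt-Tg with 118, and these 4 together made up 57.8% of the class. At the other end mt-Td stood at 0.405 counts per base (0.243 to 0.6), and mt-Ta, for alanine, at 5.1 counts per base (3.77 to 6.84), 12.6 times mt-Td. mt-Tl2 stood at 6.07 counts per base (2.76 to 13.8). Between these ends the order was close: of the 21 pairs of neighbours in the order, 19 overlapped in their ranges over the 8 libraries, and the exceptions were mt-Ts2 against mt-Th and mt-Ta against mt-Td. In 5 pairs the upper member was higher in every single library, the 3 further ones being mt-Th over mt-Tf, mt-Tc (cysteine) over mt-Te, and mt-Ts1 (serine, UCN codons) over mt-Tr (arginine). Dividing by length mattered little, since 6 members changed place in the order without it, by at most 1 place.

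**Figure D1:**
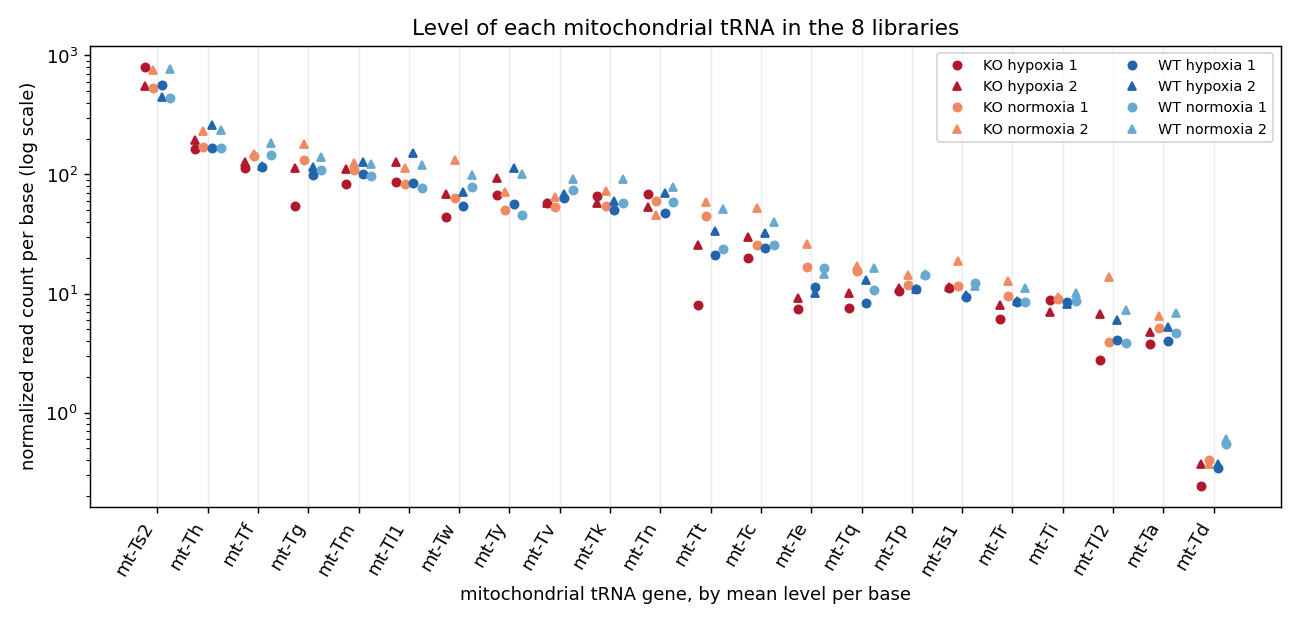
Normalized read count per base of gene length (vertical axis, log scale) of each of the 22 members in the 8 libraries, with genes along the horizontal axis from the highest to the lowest mean level; colours are groups, circles number 1 and triangles number 2. mt-Ts2 (439 to 802 counts per base) and mt-Td (0.243 to 0.6) are set off from their neighbours, and the members between them overlap.

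In counts, mt-Ts2 had 47303 and 32493 in KO hypoxia, 31162 and 44648 in KO normoxia, 32998 and 26277 in WT hypoxia, and 25928 and 45156 in WT normoxia. Its highest library was KO hypoxia number 1, and the 4 groups overlapped. There mt-Ts2 made up 43.6% of the class, against 22.8% in WT hypoxia number 2, where its part was smallest. mt-Th had 11020 and 13046 in KO hypoxia, 11432 and 15521 in KO normoxia, 11171 and 17388 in WT hypoxia, and 11218 and 15925 in WT normoxia. Number 2 was the higher library of mt-Th in each group, and all 4 groups overlapped. mt-Td had 17 and 26 in KO hypoxia, 28 and 26 in KO normoxia, 24 and 26 in WT hypoxia, and 38 and 42 in WT normoxia, so that it was detected in all 8 libraries but rested on few counts. mt-Ta had 260 and 325 in KO hypoxia, 353 and 445 in KO normoxia, 278 and 364 in WT hypoxia, and 319 and 472 in WT normoxia; both KO hypoxia libraries lay below both KO normoxia libraries, and the WT groups overlapped. The member whose replicates lay farthest apart was mt-Tl2, with 196 and 482 in KO hypoxia, 279 and 983 in KO normoxia, 287 and 426 in WT hypoxia, and 273 and 520 in WT normoxia. Its KO normoxia libraries differed by 1.81 on the log2 scale.

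Across the 22 members the log2 level per base had a correlation with gene length of r = -0.41 (Spearman's rho -0.4) and with GC content of r = 0.46 (rho 0.2). With the number of codons that a transfer RNA reads in the 13 protein genes (3790 codons in all) it was r = -0.17 (rho -0.11). These are descriptions over 22 genes of 1 chromosome measured in the same libraries. mt-Tl2, which reads the most codons (444), was among the 3 members with the fewest counts per base, and mt-Ti, which reads 373, stood at 8.72 counts per base. mt-Ts2 reads 49 codons and had the highest level.

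The members also differed by strand. The 8 genes on the minus strand, whose transfer RNAs are cut from the transcript that starts at the light-strand promoter, had a median of 13.1 counts per base (5.1 for mt-Ta to 74.8 for mt-Ty, for tyrosine). The 14 genes on the plus strand, cut from the heavy-strand transcript, had a median of 71.4 counts per base (0.405 for mt-Td to 606 for mt-Ts2). Of the 11 members in the upper part of the order 2 were on the minus strand (mt-Ty and mt-Tn, for asparagine) and 9 on the plus strand. Summed per base, the minus strand came to 0.129 to 0.18 of the plus strand over the 8 libraries. The ratio was 0.142 ± 0.0153 in KO hypoxia and 0.135 ± 0.00596 in KO normoxia, and 0.154 ± 0.0364 in WT hypoxia and 0.146 ± 0.000898 in WT normoxia (SD, n = 2 each), so the groups of each pair lay within the spread between libraries. Without the most abundant member of each strand the ratio was 0.142 to 0.185. Taken from the median level per base of each strand instead, it was 0.185 ± 0.0112 in KO hypoxia and 0.257 ± 0.0212 in KO normoxia, and 0.179 ± 0.0121 in WT hypoxia and 0.183 ± 0.0273 in WT normoxia (SD, n = 2 each), so KO normoxia was the highest group by that measure. Adjacent genes could stand far apart. mt-Ts2, the most abundant, adjoins mt-Tl2 on the same strand, and mt-Tm (methionine, 110 counts per base) lies next to mt-Tq (12.3 counts per base) on the other.

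**Figure D2:**
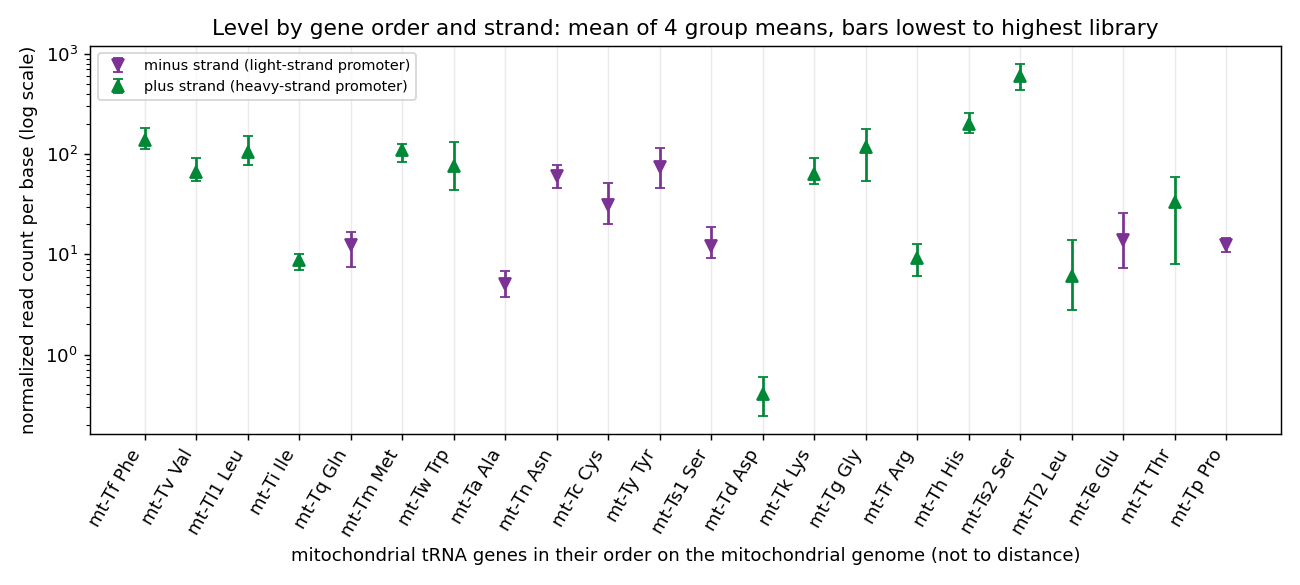
Mean level over the 4 groups in normalized read counts per base (vertical axis, log scale), with bars from the lowest to the highest library, for the 22 members in their order on the mitochondrial genome (horizontal axis, not to distance). Minus-strand members (downward triangles) lie between 5.1 and 74.8 counts per base, and plus-strand members (upward triangles) between 0.405 and 606.

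The first comparison asks how 24 h of hypoxia bore on these transfer RNAs in each genotype. Differences were taken on log2(count + 1) by limma over all 1540 features with at least 10 counts in at least 2 libraries, which all 22 members passed, with Benjamini-Hochberg adjustment over the 1540. In KO cells the median difference of hypoxia from normoxia over the members was -0.32 on the log2 scale, beside 0.016 over all features tested, and 18 of 22 members were lower (47.6% of all features were). Genomic transfer RNA was mostly lower in KO hypoxia too, with 306 of 413 features lower and a median of -0.17. By limma no member passed an adjusted p of 0.05, as did 0% of all features. At an unadjusted p under 0.05, 5 of 22 members were lower, beside 2.92% of all features, and 0 were higher, beside 2.47%. Both hypoxia libraries lay below both normoxia libraries for 10 members (13.1% of all features) and above them for 0 members (15.8%). Without KO hypoxia number 1, 19 of 22 members were lower, but 1 (mt-Te) was lower at an unadjusted p under 0.05, beside 1.69% of all features. The remaining KO hypoxia library lay below both normoxia libraries for 10 members, beside 29.4% of all features. The median was -0.22 without KO hypoxia number 1, -0.15 without KO normoxia number 2, and -0.061 without both, the last a choice made after seeing the data.

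The 5 members were mt-Te, mt-Tt, mt-Tq, mt-Tg and mt-Tr. mt-Te had 509 and 630 counts in KO hypoxia and 1161 and 1795 in KO normoxia, against 781 and 697 in WT hypoxia and 1131 and 1006 in WT normoxia. In both genotypes its hypoxia libraries lay below its normoxia libraries, and the lowest pair was KO hypoxia. Its log2 difference was -1.35 in KO cells (SE 0.30, unadjusted p = 0.00116, adjusted p = 0.804 by limma) and -0.53 in WT cells (SE 0.30, unadjusted p = 0.104, adjusted p = 1). Leaving out KO hypoxia number 1 gave -1.19 in KO cells, and leaving out KO normoxia number 2 as well gave -0.88.

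mt-Tt had the largest difference in size. It had 536 and 1713 counts in KO hypoxia and 2986 and 3945 in KO normoxia, against 1399 and 2265 in WT hypoxia and 1598 and 3457 in WT normoxia. The KO groups did not overlap and the WT groups did, and the lowest library was KO hypoxia number 1. The log2 difference was -1.84 in KO cells (SE 0.55, unadjusted p = 0.00769, adjusted p = 0.804 by limma), and -1.0 without KO hypoxia number 1, where ribosomal RNA was highest; the part of that library's makeup in the result was not tested. In WT cells it was -0.40 (SE 0.55, adjusted p = 1).

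mt-Tg had 3687 and 7678 counts in KO hypoxia and 8968 and 12220 in KO normoxia, and 6755 and 7935 in WT hypoxia and 7469 and 9626 in WT normoxia. Its low library was again KO hypoxia number 1, and its log2 difference in KO cells was -0.98 (SE 0.37, adjusted p = 0.804 by limma), or -0.45 without that library and -1.51 without the other KO hypoxia library. mt-Tq had 537 and 711 in KO hypoxia and 1095 and 1200 in KO normoxia, and 589 and 930 in WT hypoxia and 759 and 1165 in WT normoxia. The KO groups of mt-Tq were well apart and its WT groups overlapped; the log2 difference in KO cells was -0.89 (SE 0.33, adjusted p = 0.804), or -0.69 without KO hypoxia number 1. mt-Tr had 412 and 544 in KO hypoxia and 652 and 869 in KO normoxia, and 581 and 583 in WT hypoxia and 576 and 755 in WT normoxia. Its log2 difference in KO cells was -0.67 (SE 0.29, adjusted p = 0.804), or -0.47 without KO hypoxia number 1 and -0.26 without both KO hypoxia number 1 and KO normoxia number 2.

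**Figure D3:**
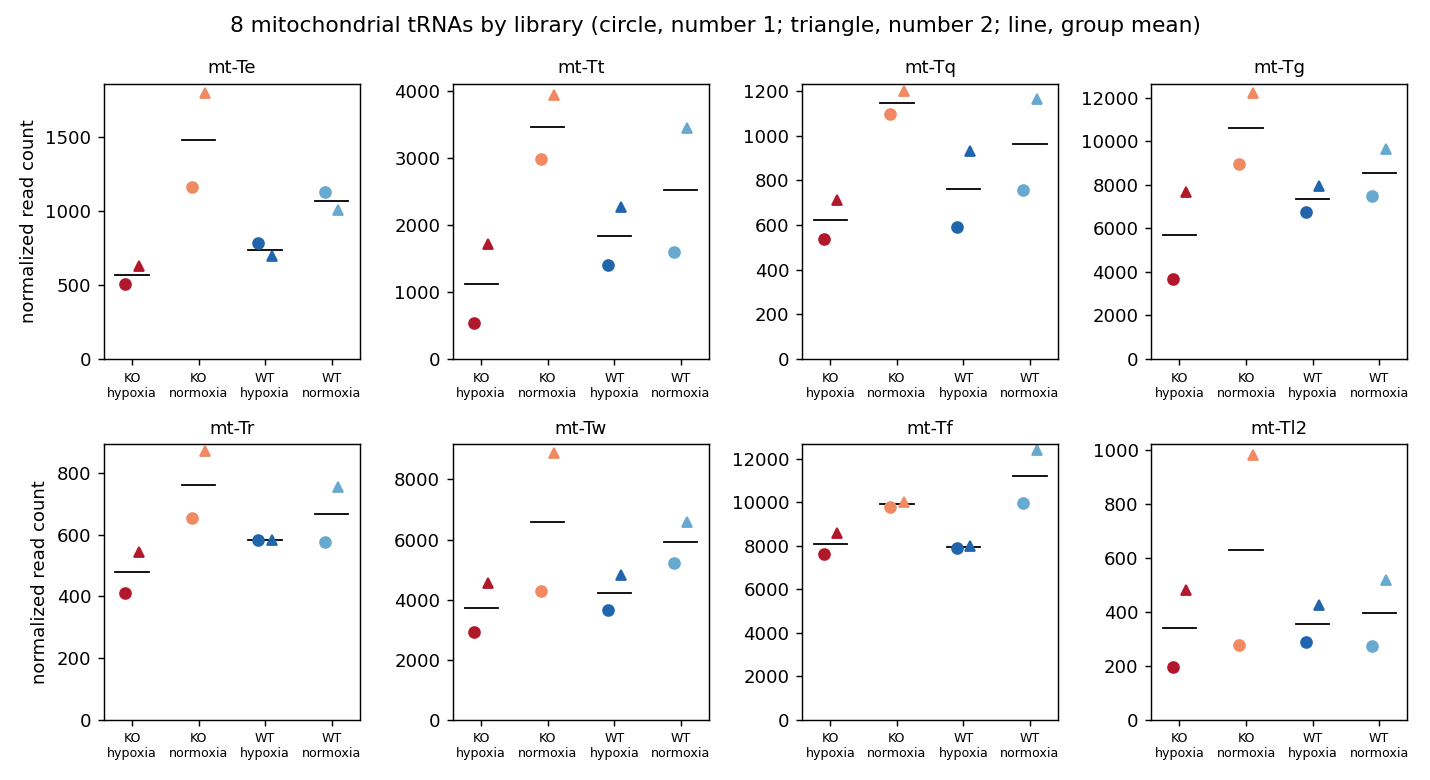
Normalized read count (vertical axis, from 0, own scale per panel) of 8 members in the 8 libraries, with groups along the horizontal axis; circles are number 1, triangles number 2 and lines group means. In mt-Te both hypoxia groups lie below both normoxia groups, while in mt-Tt and mt-Tg the library of KO hypoxia number 1, at 536 and 3687 counts, lies far below its replicate, and in mt-Tl2 KO normoxia number 2 stands out at 983 counts.

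Of the other members, mt-Tl2 at -0.77 and mt-Tw at -0.76 were as low in KO cells on the log2 scale, but their oxygen groups overlapped, and without KO hypoxia number 1 they stood at -0.12 and -0.44. The 4 that were higher in KO hypoxia than in KO normoxia were mt-Ty at 0.41 (SE 0.45), mt-Tn at 0.20, mt-Tl1 (leucine, UUR codons) at 0.12 and mt-Ts2 at 0.072 on the log2 scale, none with an adjusted p under 0.05. The sign of mt-Ts2 turned to -0.20 without KO hypoxia number 1, to -0.14 with quantile normalization and to -0.073 with libraries scaled to their microRNA total, and that of mt-Tl1 turned to -0.025 under the last. mt-Ts2, the most abundant member, therefore had no settled direction in KO cells, and without it the class took 0.664% ± 0.0435 of the counts in KO hypoxia and 0.894% ± 0.0569 in KO normoxia, and 0.693% ± 0.0529 in WT hypoxia and 0.796% ± 0.0972 in WT normoxia (SD, n = 2 each).

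In WT cells the median difference over the members was -0.25 on the log2 scale (0.016 over all features), and again 18 of 22 members were lower in hypoxia, beside 47.8% of all features. No member passed an adjusted p of 0.05 by limma, as did 0% of all features, and 0 members had an unadjusted p under 0.05 in either direction, beside 0.195% of all features lower and 1.1% higher. For 8 members both hypoxia libraries lay below both normoxia libraries (11.4% of all features), and for 0 they lay above (14.4%). The smallest p was that of mt-Tf, which had 7883 and 8014 counts in WT hypoxia and 9968 and 12426 in WT normoxia, and 7637 and 8577 in KO hypoxia and 9792 and 10034 in KO normoxia. Its hypoxia libraries lay below its normoxia libraries in both genotypes, with log2 differences of -0.29 in KO cells (SE 0.25, adjusted p = 0.901) and -0.49 in WT cells (SE 0.25, unadjusted p = 0.0819, adjusted p = 1). The WT median was -0.021 without WT normoxia number 2 and -0.14 without WT hypoxia number 1, and it was -0.45 without WT normoxia number 1 and -0.40 without WT hypoxia number 2.

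**Figure D4:**
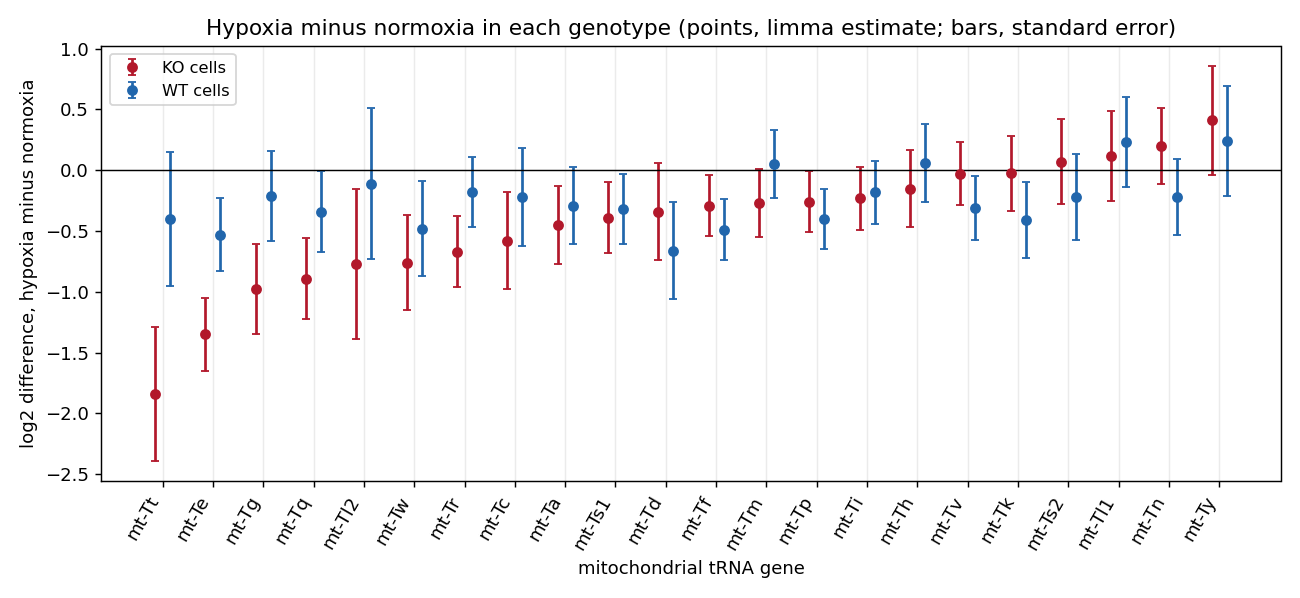
Log2 difference of hypoxia from normoxia (vertical axis) for each member (horizontal axis) in KO cells (red) and WT cells (blue), as limma estimates with standard errors, ordered by the KO value. In each genotype 18 of 22 points lie below 0, and the KO values reach down to -1.84 at mt-Tt and -1.35 at mt-Te.

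Of the 22 members 16 (72.7%) were lower in hypoxia in both genotypes, beside 361 of 1540 features (23.4%). Leaving out KO hypoxia number 1 gave 17 of 22, beside 26.7% of all features. The 2 comparisons share no library. Across the 22 members the KO and WT differences had r = 0.46 (rho 0.36), and across all 1540 features r = 0.098, given as descriptions, since genes of 1 library are not independent.

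Averaged over both genotypes, the median hypoxia difference of the members was -0.36 on the log2 scale, beside 0.032 over all features, and 20 of 22 were lower, beside 45.4% of all features. Among the genomic transfer RNA features 253 of 413 were lower, with a median of -0.082. The members' median was -0.28 with 19 of 22 lower without KO hypoxia number 1, -0.18 without KO normoxia number 2 and -0.23 without WT normoxia number 2. It stayed below 0 at -0.38 with TMM factors, -0.37 with quantile normalization and -0.46 with libraries scaled to their microRNA total. Scaling to the total of the 22 members themselves cancels a fall of the whole class and shows only shifts among members. mt-Ts2 weighs most in that total, with 31.1% of it on average and 43.6% in KO hypoxia number 1. Values under this scaling therefore depend in part on mt-Ts2. The scaling gave -0.21 with 16 of 22 lower, where the median of all features was 0.19. Relative to the genomic transfer RNA total, the oxygen groups of each genotype differed by no more than the spread between libraries, as given above. By limma 0 members passed an adjusted p of 0.05 (0% of all features), and 5 were lower at an unadjusted p under 0.05 (1.23% of all features) with 0 higher (2.34%). The number lower at that p was 1 (mt-Te) without KO hypoxia number 1, beside 2.21% of all features. For 4 members all 4 hypoxia libraries lay below all 4 normoxia libraries (0.714% of all features, 11 of 1540), and for 0 they lay above (0.519%). Without KO hypoxia number 1 there were 5, mt-Ti being added, beside 1.56% of all features. The 4 were mt-Te, mt-Tf, mt-Tp and mt-Ts1, the last pair named after their values were seen. Each had an exact two-sided permutation p of 0.0286, the smallest that 4 against 4 libraries allow. Any member so separated has this p by construction, so it adds nothing to the separation by which the 4 were picked. Between 2 groups of 2 libraries the smallest exact p is 0.333, so no pairwise exact test could have passed.

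mt-Te had a mean log2 difference of -0.94 (SE 0.21, unadjusted p = 0.00128, adjusted p = 0.975 by limma), a hypoxic level 0.521 times the normoxic one, and with each of the 8 libraries left out in turn it stood between -1.10 and -0.78. mt-Tf stood at -0.39 (SE 0.18), mt-Tp at -0.33 (SE 0.18) and mt-Ts1 at -0.36 (SE 0.21). mt-Tp had the closest replicates of all members, at most 0.277 apart on the log2 scale, with 706 and 740 counts in KO hypoxia and 789 and 956 in KO normoxia, and 728 and 732 in WT hypoxia and 960 and 971 in WT normoxia. mt-Ts1 had 768 and 781 in KO hypoxia and 797 and 1300 in KO normoxia, and 641 and 672 in WT hypoxia and 840 and 800 in WT normoxia. In KO cells its groups were separated only by the step between 781 in hypoxia and 797 in normoxia.

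The other members with an unadjusted p under 0.05 in the mean were mt-Tt at -1.12 (SE 0.39), mt-Tq at -0.62 (SE 0.24), mt-Tg at -0.59 (SE 0.26) and mt-Tw, for tryptophan, at -0.62 (SE 0.27), all with an adjusted p of 0.975. mt-Tw had 2920 and 4553 counts in KO hypoxia and 4292 and 8869 in KO normoxia, and 3644 and 4816 in WT hypoxia and 5230 and 6572 in WT normoxia. Its WT groups were apart and its KO groups overlapped, and without KO normoxia number 2 its mean difference was -0.36. Without KO hypoxia number 1 the mean difference was -0.70 for mt-Tt and -0.33 for mt-Tg. The 2 members higher in hypoxia on average were mt-Ty at 0.33 (SE 0.32) and mt-Tl1 at 0.18 (SE 0.26), neither past an unadjusted p of 0.05.

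By strand the median hypoxia difference was -0.42 in KO cells and -0.30 in WT cells for the 8 minus-strand members, and -0.28 in KO cells and -0.21 in WT cells for the 14 plus-strand members. On average over the genotypes 7 of 8 minus-strand and 13 of 14 plus-strand members were lower. Groups of members by their known base modifications were described in the same way. Taurine-containing groups sit on the wobble uridine of mt-Tl1, mt-Tw, mt-Tk (lysine), mt-Tq and mt-Te. On average 4 of these 5 were lower, with a median of -0.62 and a range of -0.94 (mt-Te) to 0.18 (mt-Tl1). The median was -0.46 with libraries scaled to the total of the 22 members, again with 4 of 5 lower. Without KO hypoxia number 1 the range was -0.86 (mt-Te) to 0.32 (mt-Tl1). mt-Te, mt-Tq and mt-Tw were already named above for their unadjusted p in the mean. Queuosine sits at the wobble position of mt-Th, mt-Ty, mt-Tn and mt-Td, and 3 of these 4 were lower, with a median of -0.028 that turned to 0.13 when libraries were scaled to the total of the 22 members. The 5 members with threonylcarbamoyl-adenosine next to the anticodon (mt-Tt, mt-Tn, mt-Ti, mt-Tk and mt-Ts2) had a median of -0.20 with 5 of 5 lower, or 3 of 5 under that scaling. The 4 with methylthio-isopentenyl-adenosine there (mt-Tf, mt-Tw, mt-Ty and mt-Ts1) had a median of -0.37 with 3 of 4 lower, and mt-Tm, whose wobble cytosine carries a formyl group, stood at -0.11, or 0.046 under that scaling. By the base at the ninth place of the gene sequence, all 13 members with A were lower on average (median -0.42), as were 4 of the 6 with G (median -0.12), both with C (median -0.23) and the single one with T, mt-Ts2 (-0.072); under the same scaling 12 of the 13 with A were lower, the median with G turned to 0.032, and mt-Ts2 stood at 0.084. None of these groups was tested against the others.

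By neighbourhood, mt-Tt and mt-Tp, which adjoin on opposite strands, had a median of -0.73 on average over the genotypes. That is the midpoint of 2 unlike values, mt-Tt at -1.12 and mt-Tp at -0.33, and mt-Tt stood at -0.70 without KO hypoxia number 1. The run of mt-Tw, mt-Ta, mt-Tn, mt-Tc and mt-Ty had a median of -0.37 with 4 of 5 lower. The run of mt-Ti, mt-Tq and mt-Tm had -0.20 and that of mt-Th, mt-Ts2 and mt-Tl2 had -0.072, with 3 of 3 lower in each. When libraries were scaled to the total of the 22 members, the run of mt-Tw had -0.21 with 3 of 5 lower, that of mt-Ti -0.047 with 2 of 3 lower, and that of mt-Th 0.084 with 1 of 3 lower. mt-Tf, mt-Tv (valine) and mt-Tl1, which flank the ribosomal RNA genes, had -0.17 with 2 of 3 lower, or -0.014 under that scaling. For comparison, the 413 genomic transfer RNA features tested had a median hypoxia difference of -0.17 in KO cells and 0.085 in WT cells. Of these, 306 were lower in hypoxia in KO cells and 174 in WT cells.

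KO cells were next compared with WT cells at each oxygen level. The number of lines behind each genotype was not stated, so loss of miR-210 cannot be told apart from differences between lines. In hypoxia the median KO minus WT difference over the members was -0.19 on the log2 scale (-0.044 over all features), with 17 of 22 lower in KO cells (54.6% of all features were), and it turned to 0.043, with 9 lower, without KO hypoxia number 1 and to 0.031 without WT hypoxia number 2. With libraries scaled to their microRNA total it was -0.032, with 12 lower and 10 higher, where the median of all features was 0.11. By limma 0 members passed an adjusted p of 0.05 (0.13% of all features), and 0 had an unadjusted p under 0.05 (1.88% of all features lower and 7.14% higher). Both KO libraries lay below both WT libraries for 3 members (mt-Te, mt-Tr and mt-Tv; 16.6% of all features) and above them for 1 (mt-Ts1; 19.2%), both smaller shares than among all features. The smallest p were those of mt-Tt at -0.89 (SE 0.55, unadjusted p = 0.136, adjusted p = 0.839) and mt-Te at -0.38 (SE 0.30, unadjusted p = 0.228, adjusted p = 0.912). Without KO hypoxia number 1 mt-Tt stood at -0.055 and mt-Te at -0.23.

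In normoxia the median KO minus WT difference was 0.052 (-0.064 over all features), with 9 members lower (54.4% of all features were) and 13 higher. It turned to -0.18 without KO normoxia number 2 and to -0.15 without WT normoxia number 1. With TMM factors it was 0.13, with 7 lower and 15 higher, and with libraries scaled to their microRNA total 0.29, with 3 lower and 19 higher, where the median of all features was 0.17. By limma 0 members passed an adjusted p of 0.05 (0.0649% of all features), and 0 had an unadjusted p under 0.05 (4.81% of all features lower and 8.64% higher). Both KO libraries lay below both WT libraries for 3 members (mt-Tv, mt-Td and mt-Tp; 20% of all features) and above them for 1 (mt-Te; 21.9%). mt-Tv, a transfer RNA that is also built into the mitochondrial ribosome in humans, had 3998 and 3974 counts in KO hypoxia and 4407 and 4763 in WT hypoxia, and 3683 and 4480 in KO normoxia and 5157 and 6278 in WT normoxia. Its KO libraries were the lower ones at each oxygen level, with a log2 difference of -0.20 in hypoxia (SE 0.26, adjusted p = 0.967) and -0.49 in normoxia (SE 0.26, unadjusted p = 0.0871, adjusted p = 0.449). mt-Te was higher in KO than in WT normoxia by 0.44 (SE 0.30, adjusted p = 0.565), so its KO and WT libraries stood in opposite order at the 2 oxygen levels. In normoxia, however, they were separated only by the step between 1131 (WT number 1) and 1161 (KO number 1). KO normoxia number 2 stood at 1795.

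**Figure D5:**
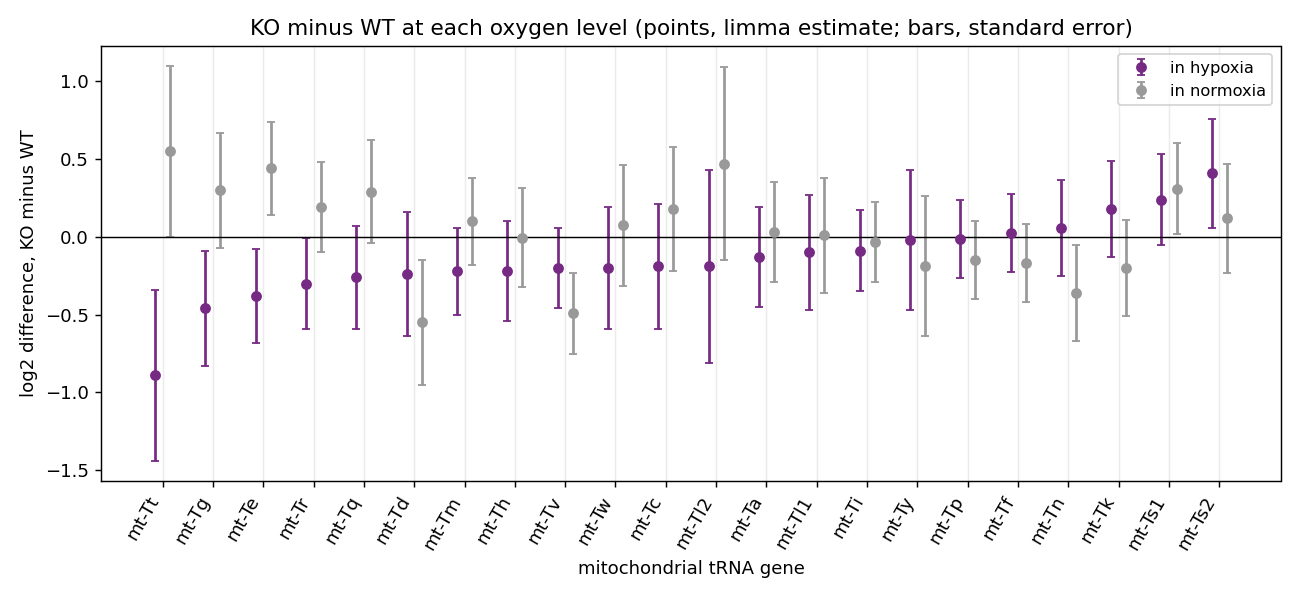
Log2 difference of KO from WT cells (vertical axis) for each member (horizontal axis) in hypoxia (purple) and in normoxia (grey), as limma estimates with standard errors, ordered by the value in hypoxia. In hypoxia 17 of 22 points lie below 0 and in normoxia 9 of 22, and mt-Te stands at -0.38 in hypoxia and 0.44 in normoxia.

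Averaged over both oxygen levels, the median KO minus WT difference over the members was -0.061, close to the -0.058 over all features, with 17 of 22 lower (56.8% of all features were); this direction turned with the scaling, to 0.0058 with TMM factors and to 0.13 with libraries scaled to their microRNA total, where 2 of 22 were lower, and it was 0.045, with 8 lower, without KO hypoxia number 1. By limma 0 members passed an adjusted p of 0.05 (0.13% of all features), and 0 had an unadjusted p under 0.05 (5.45% of all features lower and 12.3% higher). For 0 members did all 4 KO libraries lie below all 4 WT libraries (3.51% of all features), and for 0 above them (8.38%). The smallest p were those of mt-Tv at -0.34 (SE 0.18, adjusted p = 0.41, exact two-sided permutation p = 0.0571) and mt-Td at -0.39 (SE 0.28, adjusted p = 0.595, exact two-sided permutation p = 0.286).

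The interaction asks whether the hypoxia difference itself differed between KO and WT cells. Its median over the members was -0.14 on the log2 scale (0.016 over all features), with 14 of 22 below 0 (47.8% of all features); without KO hypoxia number 1 it was -0.006, with 11 below 0. By limma 0 members passed an adjusted p of 0.05 (0% of all features), and 0 had an unadjusted p under 0.05 (1.49% of all features below 0 and 0.909% above). The smallest p were those of mt-Te at -0.82 (SE 0.42, unadjusted p = 0.0808, adjusted p = 1) and mt-Tt at -1.44 (SE 0.78, unadjusted p = 0.0944, adjusted p = 1). Without KO hypoxia number 1 they stood at -0.66 and -0.60. The median turned to 0.18 without KO normoxia number 2 and to 0.048 without WT normoxia number 1. No member was therefore shown to differ between the genotypes in its hypoxia difference.

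Library number moved with the members too. In 14 of 22 members (63.6%) the number 2 library was the higher one in all 4 groups, as in 16% of all features, and in 0 members it was the lower one in all 4 (13.6% of all features). Number 2 also had the larger library total in each group, and these counts were not rescaled to the totals. As a share of the library, the class was lower in number 2 in KO hypoxia (0.986% against 1.12%) and WT hypoxia (0.946% against 0.988%). It was higher there in KO normoxia (1.37% against 1.22%) and WT normoxia (1.26% against 0.992%). Within a number, hypoxia against normoxia in KO cells had a median of -0.36 over the members in number 1 and -0.44 in number 2, and in WT cells -0.19 in number 1 and -0.35 in number 2, so the members' lower median in hypoxia was there in both numbers.

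Further listings of these genes, or copies of them elsewhere, could have taken reads from the members. The table lists 14 further features related to them, of which 2 are piRNA features elsewhere on the mitochondrial chromosome and 12 are other transfer RNA features sharing at least 20 bases with a member. The largest of these relative to its member came to 2.41% of mt-Ta, followed by a pair at 1.48% and 1.1% of mt-Tl2. Of mt-Tf they came to 0.418% and of mt-Te to 0.311%. The features at 2.41% of mt-Ta, 1.1% of mt-Tl2, 0.418% of mt-Tf and 0.311% of mt-Te lie on the mitochondrial chromosome. Each has the same sequence as its member, so these are further listings of the same genes. The feature at 1.48% of mt-Tl2 lies elsewhere. The rule for assigning reads that match both was not stated.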

How the data were processed

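Total RNA (miRNeasy) was made into small RNA libraries with NEBNext reagents for SOLiD sequencing, per the labels. The deposited table holds whole-number scores, which per the deposited file are normalized read counts; the authors' trimming, aligner, build, treatment of reads with several matches and normalization: not given in the sources used here. No count test was run, because the values are normalized. Limma 3.58.1 (R 4.3.3) modelled log2(value + 1), with the prior variance following the mean level, over 1540 features with at least 10 in at least 2 libraries, as 4 group means with 4 residual and 5.64 prior degrees of freedom, and p-values were adjusted by Benjamini-Hochberg with a threshold of 0.05. The script was tested on simulated data. TMM factors were computed from the deposited values. Shares have exact (Clopper-Pearson) intervals computed from the deposited values as if these were reads, as a description and not a test. Codons were counted in the 13 protein-coding transcripts of GENCODE M21. Equal replicate numbers were not taken to pair libraries.

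The members, lists and named members were chosen with earlier results of these data known. Values by library are given for the 3 highest and 3 lowest members per base, for each member with an unadjusted p under 0.05 in a comparison (or the 2 smallest p), and for the member with the largest gap between replicates. Alternatives covered the pseudocount, filter, scaling, trend, replicate block, groups fitted and each library left out.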

Additional observations from a re-analysis of the deposited data

How the results depend on the processing

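No alternative called any member: all 137 recounts of members past an adjusted p of 0.05 were 0, and the smallest adjusted p of a member in any of them was 0.144 (mt-Tt, hypoxia against normoxia in KO cells, with the replicate number as a block). With that replicate block the adjusted p of mt-Te was 0.258 in KO cells and 0.146 on average over the genotypes; no call changed. For the members with the smallest p in each comparison, 20 pairs of member and comparison, all 390 values under alternatives kept their direction and their side of the threshold. These pairs were picked by their p in the same data and none had passed, so this is weak support. Sizes did change, as for mt-Tt in KO minus WT hypoxia, at -0.89 and at -0.055 without KO hypoxia number 1. Other members turned, mt-Ts2 and mt-Tm among them. The mean share of a library was 1.11%, and 1.53% without the single most abundant feature; relative to the genomic transfer RNA total it was 0.134. The minus-strand over plus-strand ratio, 0.144 from sums per base, was 0.201 from medians. The interaction median, -0.14, was 0.28 without KO hypoxia number 1 and KO normoxia number 2; the cause was not tested. The replicate numbers give only 2 pairs, with deviations correlated between groups at r = 0.15 to 0.55. With 2 libraries per group, differences of the size seen here lie within reach of single libraries, and mt-Td rests on 17 to 42 counts.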
